A study of Mus musculus with 20 samples.

Results

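The 9 genes described here, Sparcl1, Slc1a2, Slc1a3, Gfap, Aqp4, Aldoc, Gja1, Clu and Slc4a4, are genes of astrocytes, and they were chosen by name from the 24062 genes measured in RNA of isolated mouse microglia. Of them, Slc1a3 was set apart as the gene with which the other 8 are contrasted. The genes and this contrast were chosen with earlier results of these data known. RNA was sequenced from 20 male mice on a B6D2F1/J background, each sample being the microglia of the whole brain of 1 mouse. The transgenic mice carry full-length human wild-type α-synuclein under the murine Thy-1 promoter, which is active mainly in neurons, and the labels give their genotype as HEM. At 7 months the groups held 6 transgenic mice (mThy1-α-synuclein) and 4 wild-type littermates, and at 10 months 5 mice each. The mice of each age were processed together, so age and processing cannot be told apart. The labels name IBA1 magnetic beads for the selection of the cells and the study's methods name CD11b beads, applied after removal of myelin debris and red blood cells.

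Astrocytes are the star-shaped glia that wrap synapses and blood vessels, take up glutamate, move water and potassium, and are joined into networks by gap junctions. Slc1a2 (GLT-1) and Slc1a3 (GLAST) encode the main glutamate transporters of these cells. Sparcl1 encodes hevin, a secreted protein that promotes synapse formation and that endothelial cells also make. Gja1 encodes connexin 43, the main astrocyte gap junction protein, Aqp4 the water channel of the endfeet, and Slc4a4 a sodium bicarbonate cotransporter. Aldoc encodes the brain form of the glycolytic enzyme aldolase, Clu the secreted chaperone clusterin, and Gfap the intermediate filament that rises in reactive astrocytes. Microglia are the resident macrophages of the brain, and in a preparation of them RNA of other cells can be present.

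In the mm10 genome with GENCODE M21 annotation, all 9 genes are protein-coding. The glutamate transporter genes lie at chr2:102658659-102790784 on the plus strand (Slc1a2) and at chr15:8634124-8710764 on the minus strand (Slc1a3). Sparcl1 lies at chr5:104079111-104113733 (minus), Slc4a4 at chr5:88886818-89239653 (plus) and Gja1 at chr10:56377330-56402513 (plus). Aldoc lies at chr11:78322968-78327781 (plus), Gfap at chr11:102887336-102900912 (minus) and Clu at chr14:65968483-65981547 (plus). Values are gene-level totals over all exons. Only Slc1a2 shares exon bases with another annotated gene (Gm13872), so a part of its value is uncertain.

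The 250 bases upstream of the RefSeq start (GRCm38.p6, the build of mm10) are shown for Slc1a3, which was higher in the transgenic mice at 7 months, and for Gja1, which was lower in the same mice. Capitals mark matches to 4 short motifs, each searched on both strands. The TATA box was searched as TATAAA. The partial site of nuclear factor I, a family of astrocyte regulators, was searched as TTGGCA. The core of the site of PU.1, a myeloid factor, was searched as GAGGAA. The core of the site of SOX factors was searched as ACAAAG. Each window held 1 match, so none overlapped.
Slc1a3, chr15:8710808-8711057, minus strand: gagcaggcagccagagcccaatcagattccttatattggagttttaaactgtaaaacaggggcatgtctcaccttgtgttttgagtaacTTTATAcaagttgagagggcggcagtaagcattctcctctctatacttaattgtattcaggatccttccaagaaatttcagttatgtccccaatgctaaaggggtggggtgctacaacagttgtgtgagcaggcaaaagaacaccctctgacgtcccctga
Gja1, chr10:56377050-56377299, plus strand: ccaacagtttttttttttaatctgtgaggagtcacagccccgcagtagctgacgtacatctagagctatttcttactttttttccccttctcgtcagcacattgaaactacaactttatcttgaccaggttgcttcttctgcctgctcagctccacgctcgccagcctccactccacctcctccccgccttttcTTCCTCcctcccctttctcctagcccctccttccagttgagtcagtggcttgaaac
The Slc1a3 window held a match to TATAAA on the opposite strand, and 12.4% of the 32851 promoter windows of the same length held that motif. The Gja1 window held a match to GAGGAA on the opposite strand, a motif found in 23.3% of the windows. Neither window held the nuclear factor I or SOX letters, which 12.3% and 16.5% of all windows held. GC content was 44.8% upstream of Slc1a3 and 50% upstream of Gja1, with a median of 52.4% over all windows. These matches describe the letters of the windows only.

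Between 33404096 and 77806399 reads per mouse were counted on genes, and the deposited values are normalized counts, in which each gene's reads are divided by a size factor of the mouse. The preparation carried the defining microglial markers at high levels. Cx3cr1, the fractalkine receptor, ranged from 237814 to 361547 normalized counts over the 20 mice, and 19 microglia markers together made up 55478 to 67157 RPM (reads on genes scaled to 1000000 per mouse). RNA of blood cells was present too: 9 neutrophil markers together made up 852 to 8468 RPM, both ends in transgenic mice at 7 months. Thy1, whose promoter drives the transgene, averaged 919 ± 337 normalized counts (SD, n = 6) in transgenic and 39.2 ± 14.4 (SD, n = 4) in wild-type mice at 7 months, and 1423 ± 263 against 17.4 ± 8.80 (SD, n = 5 each) at 10 months, in accord with the genotype labels. The 4 wild-type mice at 7 months had the highest median of the 4 groups in the summed level of the 8 genes other than Slc1a3 (103 RPM, other groups 33.9 to 65.8) and of neuron markers (86.9 RPM, other groups 30.6 to 55.5). In these bulk samples, fewer astrocytes, less RNA per astrocyte and a different amount of other cells' RNA in the preparation cannot be told apart.

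Levels of different genes were compared per kilobase of exon. Slc1a3 was the most abundant of the 9 genes in 3 of the 4 groups. Its mean level per kilobase was 1192 ± 125 (SD, n = 6) normalized counts in transgenic mice at 7 months, 1106 ± 75.5 (SD, n = 5) in transgenic and 1090 ± 91.5 (SD, n = 5) in wild-type mice at 10 months. In these groups Sparcl1 was next, at 263 ± 82.9, 495 ± 174 and 475 ± 159 per kilobase. In the wild-type mice at 7 months the order of the first 2 turned, with Sparcl1 at 959 ± 174 and Slc1a3 at 931 ± 73.8 per kilobase (SD, n = 4), a gap smaller than their spread. Clu followed them in each group, at 80.7 ± 55.1 to 159 ± 49.9 per kilobase. Aldoc (46.2 ± 12.3 to 116 ± 26.0) and Slc1a2 (30.2 ± 6.07 to 92.0 ± 24.6) came after it in each group. Gfap, Slc4a4, Gja1 and Aqp4 had mean levels between 5.01 and 33.3 per kilobase. Of the 32 pairs of neighbours in these orders, 15 differed by less than the larger of their SDs, among them Clu and Aldoc at 7 months, and Aqp4 and Gja1 in transgenic mice of both ages. Among 13779 genes with an exon length, Slc1a3 exceeded 83.2% to 86.9% of the genes per kilobase in every group, while Aqp4 exceeded 10.7% to 15.1%.

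Slc1a3 also differed from the rest in its spread. Its coefficient of variation between the mice of a group was 6.83% to 10.5%, and that of the other 8 genes 13.4% to 68.3%. Of all the reads on the 9 genes, Slc1a3 held 73.4% to 88.6% in the transgenic mice at 7 months and 55.4% to 62.0% in their wild-type littermates, without overlap. At 10 months the share was 66.9% to 81.6% in transgenic and 69.3% to 86.1% in wild-type mice, and the groups overlapped.

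**Figure D1:**
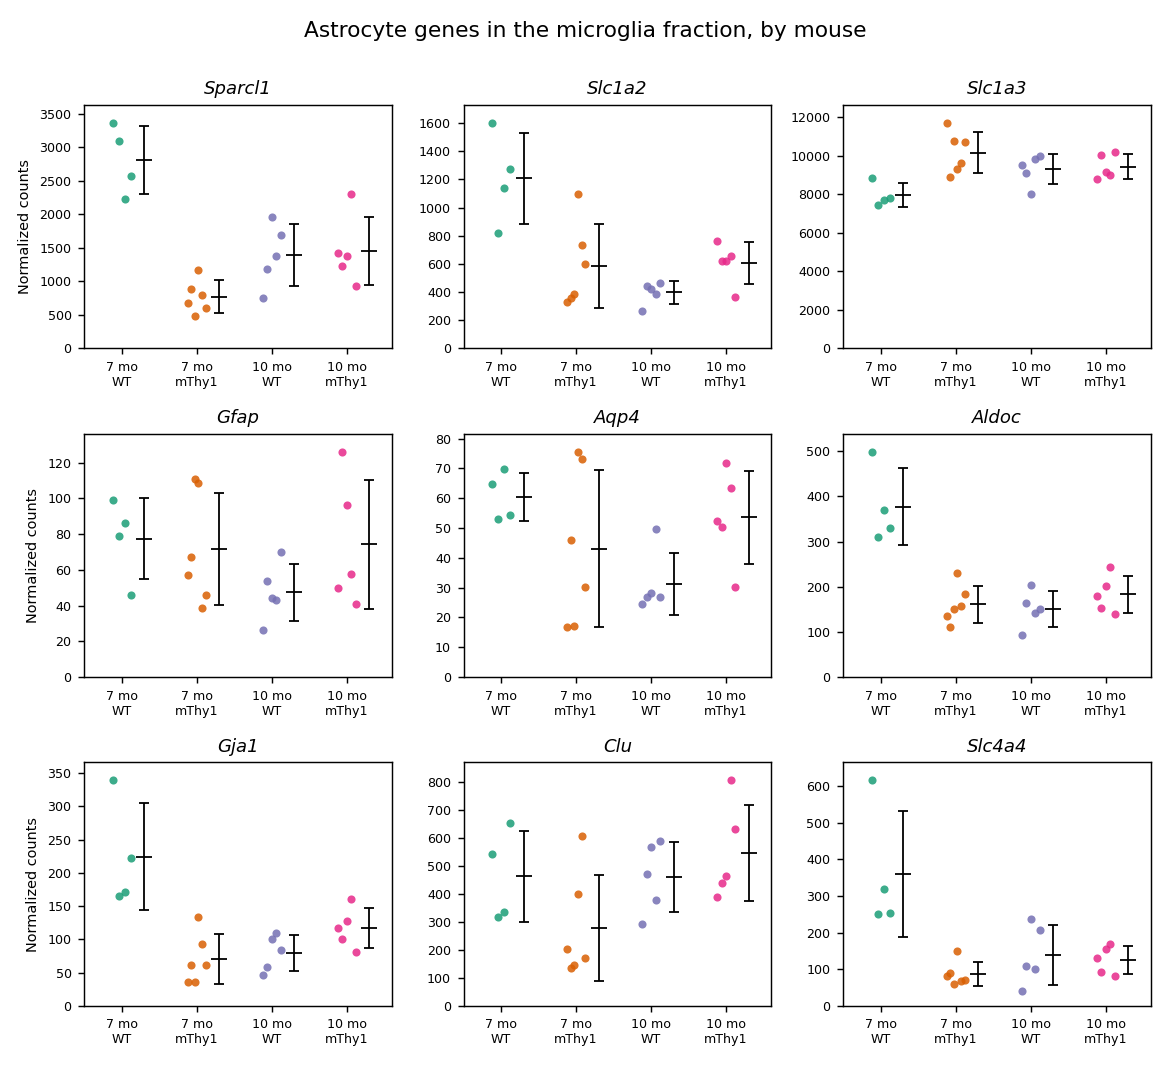
Normalized counts (y axis, linear from 0) of the 9 astrocyte genes in each mouse, by age and genotype (x axis; WT, wild-type; mThy1, mThy1-α-synuclein). Points are mice, and the bar beside them is the mean ± SD. Sparcl1, Aldoc, Gja1 and Slc4a4 were higher in all 4 wild-type than in all 6 transgenic mice at 7 months, and Slc1a3 was lower.

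The comparison at 7 months asked which genes of the microglia fraction differed between transgenic and wild-type mice at the earlier age. Sparcl1, Slc4a4, Gja1 and Aldoc were lower in the mThy1-α-synuclein mice, by 2.35-fold to 4.03-fold, and Slc1a3 was modestly higher. Thus 4 of 9 genes fell, while 2.70% of the 13887 genes tested fell, and 1 of 9 rose, while 2.23% of all genes rose (limma on log2(value + 1), Benjamini-Hochberg adjusted p under 0.05). The same 4 genes were lower in every transgenic than in every wild-type mouse, as were 3.97% of all genes, and Slc1a3 was higher in every transgenic mouse, as were 3.55%. Slc1a2, Clu, Aqp4 and Gfap did not pass the test. All 9 genes had passed the filter on low values. The median log2 fold change of the 9 genes was -1.15, and that of all genes tested was 0.00093.

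Of the glutamate transporters, Slc1a3 rose and Slc1a2 did not pass. Slc1a3 measured 8860, 7422, 7684 and 7832 normalized counts in wild-type mice 1 to 4, and 8882 to 11711 with a median of 10177 in the 6 transgenic mice. The lowest transgenic mouse lay just above the highest wild-type mouse. The log2 fold change of Slc1a3 was 0.35 ± 0.085 (SE, limma adjusted p = 0.0262), or 1.28-fold. This call is the weakest of the 5: it was lost in 5 of the 10 fits that each left out 1 mouse (transgenic mouse 3 or 6, wild-type mouse 2, 3 or 4), with limma adjusted p values of 0.0525 to 0.0802 and log2 fold changes of 0.32 to 0.35. Slc1a2 measured 1601, 819, 1138 and 1272 normalized counts in the wild-type mice and 330 to 1098, median 492, in the transgenic mice. Its highest transgenic mouse, number 4, lay within the wild-type range. The log2 fold change of Slc1a2 was -1.15 ± 0.36 (SE), which did not pass the test over all genes (limma adjusted p = 0.110), and it passed when transgenic mouse 4 was left out (log2 fold change -1.36, limma adjusted p = 0.0180).

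Sparcl1, the synaptogenic secreted protein, had the lowest adjusted p of the 9 genes together with Slc4a4. Sparcl1 measured 3365, 3095, 2225 and 2576 normalized counts in the wild-type mice and 483 to 1176, median 741, in the transgenic mice. The highest transgenic value lay far below the lowest wild-type value. Its log2 fold change was -1.90 ± 0.22 (SE, limma adjusted p = 0.00183), a 3.74-fold lower level. Clu, the other secreted protein, measured 545, 317, 335 and 654 normalized counts in wild-type and 135 to 609, median 187, in transgenic mice. The groups overlapped, and its log2 fold change of -0.91 ± 0.45 (SE) did not pass (limma adjusted p = 0.290).

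Of the genes of ion and water transport and of cell coupling, Slc4a4 and Gja1 fell. Slc4a4, the bicarbonate cotransporter, measured 616, 252, 320 and 253 normalized counts in the wild-type mice and 59.3 to 150, median 76.0, in the transgenic mice. Its log2 fold change was -2.01 ± 0.29 (SE, limma adjusted p = 0.00183), a 4.03-fold lower level and the largest difference of the 9 genes in this fit. Gja1, connexin 43, measured 339, 165, 171 and 222 normalized counts against 35.4 to 134, median 60.9. The groups of Gja1 did not overlap, with a log2 fold change of -1.77 ± 0.36 (SE, limma adjusted p = 0.0110), and the call was lost without wild-type mouse 1 (log2 fold change -1.55, limma adjusted p = 0.0584). Aqp4, the endfoot water channel, measured 64.7, 53.0, 69.7 and 54.3 normalized counts in wild-type mice, within the 16.8 to 75.6 of the transgenic mice. The transgenic mice spread more widely for Aqp4, and its log2 fold change of -0.71 ± 0.44 (SE) did not pass (limma adjusted p = 0.369).

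Aldoc, the glycolytic enzyme, measured 499, 310, 371 and 330 normalized counts in wild-type mice and 110 to 229, median 154, in transgenic mice. All transgenic mice lay below all wild-type mice, and the log2 fold change was -1.24 ± 0.21 (SE, limma adjusted p = 0.00347), a 2.35-fold lower level. Gfap, the filament protein, measured 98.9, 79.0, 86.2 and 45.8 normalized counts in wild-type and 38.6 to 111, median 62.3, in transgenic mice. Its log2 fold change was -0.17 ± 0.34 (SE, limma adjusted p = 0.813), the smallest in size of the 9 genes. Wild-type mouse 1 was the highest of its group in 6 of the 8 genes other than Slc1a3, and transgenic mouse 4 was the highest of its group in 6 of 8. Without wild-type mouse 1, Sparcl1, Slc4a4 and Aldoc still fell, with limma adjusted p values of 0.0114, 0.0114 and 0.0242.

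**Figure D2:**
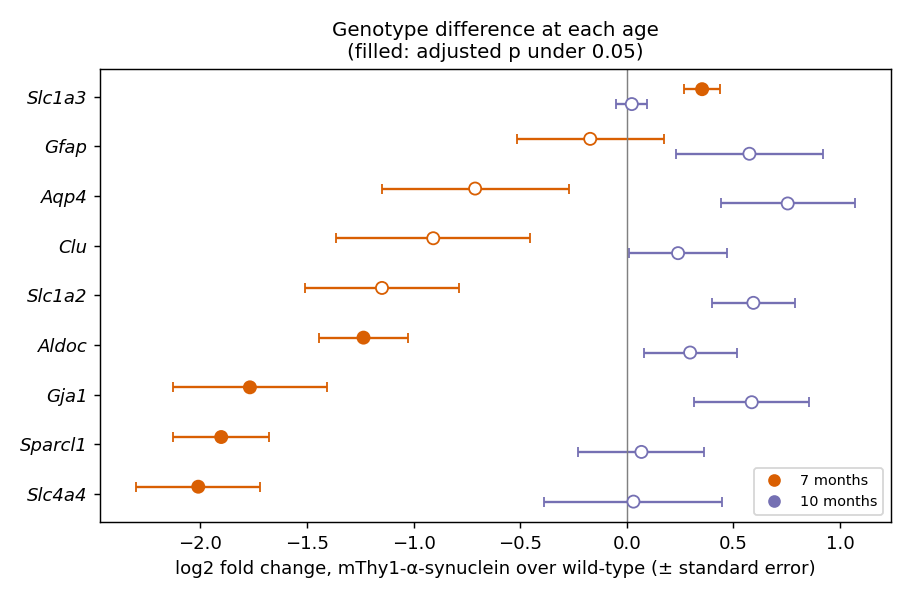
log2 fold change of mThy1-α-synuclein over wild-type mice (x axis) with its standard error for each of the 9 genes (y axis, ordered by the value at 7 months), at 7 and 10 months. Filled points passed the test; at 7 months the values ran from -2.01 for Slc4a4 to 0.35 for Slc1a3, and at 10 months no point was filled.

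At 10 months the same comparison gave different values. None of the 9 genes passed the test, while 7.67% of the 13627 genes tested passed in either direction. At an unadjusted p under 0.05 there were 3 of the 9 (Slc1a2, Aqp4 and Gja1), all higher in the transgenic mice, while 23.5% of all genes were under it in either direction. DESeq2 on the recovered reads called 1 (Slc1a2), and edgeR called 0. For no gene of the 9 were the groups free of overlap, as they were for 7.27% of all genes. The log2 fold changes ran from 0.023 (Slc1a3) to 0.75 (Aqp4), with a median of 0.30 against -0.0026 over all genes.

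Slc1a2 measured 765, 620, 621, 658 and 363 normalized counts in transgenic mice 1 to 5 and 265, 446, 419, 387 and 467 in wild-type mice 1 to 5. The 4 transgenic mice other than number 5 lay above all wild-type mice. The log2 fold change of Slc1a2 was 0.59 ± 0.20 (SE, limma adjusted p = 0.0832), and it passed without transgenic mouse 5 (log2 fold change 0.77, limma adjusted p = 0.0174). Slc1a3 measured 8776, 10048, 9182, 9003 and 10212 normalized counts in transgenic and 9527, 9134, 8036, 9842 and 9986 in wild-type mice. For Slc1a3 the groups overlapped, with a log2 fold change of 0.023 ± 0.073 (SE, limma adjusted p = 0.887) whose sign turned when single mice were left out.

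Sparcl1 measured 1419, 1229, 1379, 2304 and 936 normalized counts in transgenic and 749, 1192, 1966, 1378 and 1695 in wild-type mice. Slc4a4 measured 130, 91.7, 155, 168 and 80.3 against 41.3, 108, 238, 101 and 206. These 2 genes, with the lowest adjusted p at 7 months, had log2 fold changes at 10 months of 0.068 ± 0.30 for Sparcl1 and 0.031 ± 0.42 for Slc4a4 (SE, limma adjusted p = 0.920 and 0.975), and that of Slc4a4 was -0.16 in edgeR and in DESeq2. Gja1 measured 117, 101, 127, 161 and 80.3 normalized counts in transgenic and 46.6, 57.7, 101, 109 and 83.7 in wild-type mice. Aldoc measured 179, 153, 202, 243 and 139 normalized counts against 92.1, 165, 204, 142 and 151. Both overlapped between genotypes, with log2 fold changes of 0.59 ± 0.27 for Gja1 and 0.30 ± 0.22 for Aldoc (SE, limma adjusted p = 0.203 and 0.444).

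Aqp4 measured 52.5, 50.3, 71.7, 63.3 and 30.1 normalized counts in transgenic and 24.4, 26.7, 28.3, 49.7 and 27.0 in wild-type mice. Wild-type mouse 4 stood above the rest of its group and transgenic mouse 5 below the rest of its own, and the log2 fold change was 0.75 ± 0.31 (SE, limma adjusted p = 0.158). Gfap ranged from 41.1 to 126 normalized counts in transgenic and 26.5 to 69.8 in wild-type mice (log2 fold change 0.57 ± 0.34, limma adjusted p = 0.340), and Clu from 389 to 807 and 294 to 590 (0.24 ± 0.23, limma adjusted p = 0.574). Wild-type mouse 1 was the lowest of its group in all 8 genes other than Slc1a3, and transgenic mouse 5 in 7 of the 8.

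The interaction, the genotype difference at 10 months minus that at 7 months, tests whether the ages differ. For 5 of the 9 genes the difference was more positive at 10 months and passed (limma adjusted p under 0.05). The same held for 3.74% of the 14457 genes tested over all mice. The 5 were Gja1 (2.35 ± 0.47 on the log2 scale, SE, limma adjusted p = 0.00494), Slc4a4 (2.04 ± 0.54, limma adjusted p = 0.0279), Sparcl1 (1.97 ± 0.40, limma adjusted p = 0.00805), Slc1a2 (1.74 ± 0.43, limma adjusted p = 0.0212) and Aldoc (1.53 ± 0.31, limma adjusted p = 0.00527). Slc1a2 thus passed here although it passed at neither age. Without the 7-month wild-type mouse 1 the calls of Slc1a2 and Slc4a4 were lost (limma adjusted p = 0.0504 and 0.0669), and that of Slc4a4 also without the 10-month transgenic mouse 3 (limma adjusted p = 0.0528). The interaction of Slc1a3 had the opposite sign, -0.33 ± 0.11 (SE), and did not pass (limma adjusted p = 0.0801), and it passed without the 10-month wild-type mouse 3 (log2 value -0.38, limma adjusted p = 0.0377). Aqp4, Clu and Gfap had values of 1.47, 1.15 and 0.75 with limma adjusted p values of 0.111, 0.218 and 0.406.

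In several genes the wild-type mice at 7 months were apart from all others. Because each age was normalized separately, levels across ages are set side by side without a test. In Aldoc, Gja1 and Slc4a4 the 4 wild-type mice at 7 months lay above all 16 other mice, as they did in 1.10% of the 14457 genes. For Aldoc these were 310 to 499 against 92.1 to 243 normalized counts, for Gja1 165 to 339 against 35.4 to 161, and for Slc4a4 252 to 616 against 41.3 to 238. In RPM, this was so for Aldoc alone of the 9 (6.06 to 9.57 against 1.90 to 5.10) and for 0.519% of all genes. For Slc1a3 the same 4 mice lay below all 16 others in RPM, at 142 to 170 against 172 to 231, as they did in 0.609% of all genes. Summed over the 8 genes other than Slc1a3, the level was 87.0 to 137 RPM in wild-type mice at 7 months, 26.2 to 65.6 in transgenic mice at 7 months, and 31.8 to 76.2 in wild-type and 47.7 to 93.8 in transgenic mice at 10 months.

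Whether the other 8 genes moved differently from Slc1a3 was tested by subtracting the log2 value of Slc1a3 in the same mouse. At 7 months 5 of the 8 passed as lower than Slc1a3, but so did 34.6% of the 13886 other genes tested, since all these tests share the higher Slc1a3 of the transgenic mice and its error. The size of the difference was larger for these genes than for most: the median over the 8 genes was -1.54 on the log2 scale and over all genes -0.35. The differences from Slc1a3 were -2.36 ± 0.29 for Slc4a4, -2.26 ± 0.28 for Sparcl1, -2.12 ± 0.37 for Gja1, -1.59 ± 0.22 for Aldoc and -1.50 ± 0.40 for Slc1a2 (SE, limma adjusted p = 1.36e-05, 0.000678, 0.000722, 2.08e-05 and 0.0217). The call of Slc1a2 was lost without wild-type mouse 3 or 4 (limma adjusted p = 0.0566 and 0.0596). Clu, Aqp4 and Gfap did not pass (limma adjusted p = 0.0754, 0.0692 and 0.227). Clu passed without transgenic mouse 5 (log2 value -1.55, limma adjusted p = 0.00469), and Aqp4 without transgenic mouse 4 or 5 (log2 values -1.30 and -1.28, limma adjusted p = 0.0228 and 0.0304). As a plain ratio, Slc1a3 was 7.92 to 22.3 times Sparcl1 in the transgenic mice and 2.40 to 3.45 times Sparcl1 in the wild-type mice, in normalized counts not corrected for length.

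At 10 months none of the 8 genes passed against Slc1a3, while 3.19% of the 13626 other genes did in either direction. At an unadjusted p under 0.05, where 17.7% of the other genes lay, there was 1 of the 8 (Slc1a2, difference 0.57 ± 0.23, limma adjusted p = 0.200), which passed without transgenic mouse 5 (log2 value 0.77, limma adjusted p = 0.0229). The ratio of Slc1a3 to Sparcl1 was 3.91 to 10.9 in transgenic and 4.09 to 12.7 in wild-type mice.

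**Figure D3:**
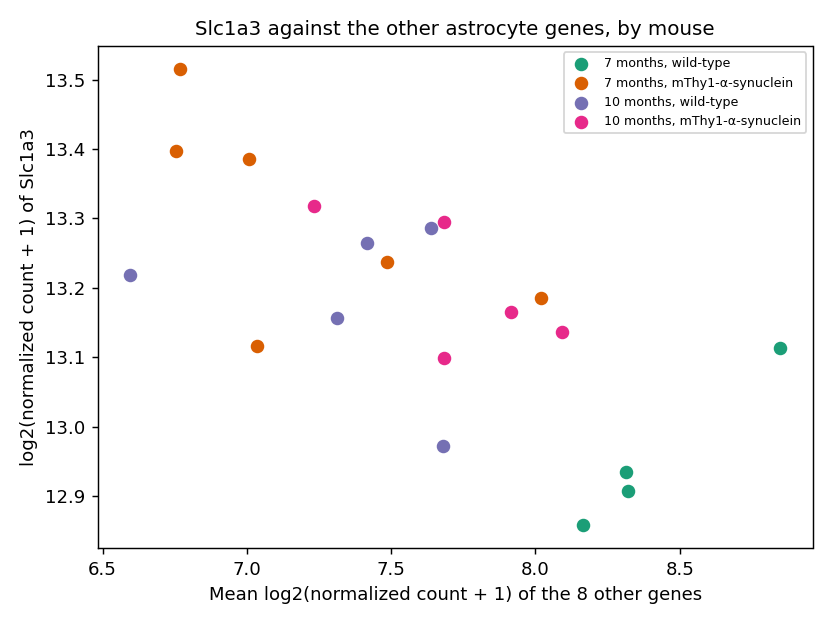
log2(normalized count + 1) of Slc1a3 (y axis) against the mean of the same measure over the other 8 genes (x axis), 1 point per mouse, coloured by group. The wild-type mice at 7 months lie at the right, with means of 8.16 to 8.85, and the transgenic mice of that age lie at 6.76 to 8.02.

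How the 9 genes varied together was measured on log2 values centred within each of the 4 groups, so that group differences play no part. Over the 20 mice the 28 pairs without Slc1a3 had a median Pearson r of 0.57, and 27 of them were positive. Of the 28, 14 had an adjusted permutation p under 0.05 by Pearson's r and 9 by Spearman's rho (100000 permutations within groups, 36 pairs adjusted together). No such count was made over pairs of other genes, so whether these values are particular to the 8 genes was not tested. The closest pair was Sparcl1 and Slc4a4, with r = 0.84 and rho = 0.77 (adjusted permutation p = 0.00072 and 0.00432), r = 0.71 within 7 months, r = 0.91 within 10 months, and r = 0.80 without the 2 mice farthest from the median of Sparcl1. Aqp4 and Gja1, channels of water and of cell coupling, had r = 0.83 and rho = 0.83 (adjusted permutation p = 0.00144 for each), and r = 0.76 without the 2 farthest mice. Slc1a2 and Gja1 had r = 0.82 and rho = 0.71 (adjusted permutation p = 0.00144 and 0.0173), and r = 0.73 without the 2 farthest mice. Gfap was the loosest of the 8, with r between -0.15 (Clu) and 0.46 (Slc4a4).

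The pairs with Slc1a3 did not pass. Its 8 pairs had r between -0.52 (Aqp4) and 0.067 (Gfap), with a median of -0.25 (smallest adjusted permutation p = 0.103 by r and 0.0872 by rho). Its r with Slc1a2, the other glutamate transporter, was -0.25 and its rho -0.23 (adjusted permutation p = 0.464 and 0.478). All genes of a library share its size factor, which enters each of these values.

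**Figure D4:**
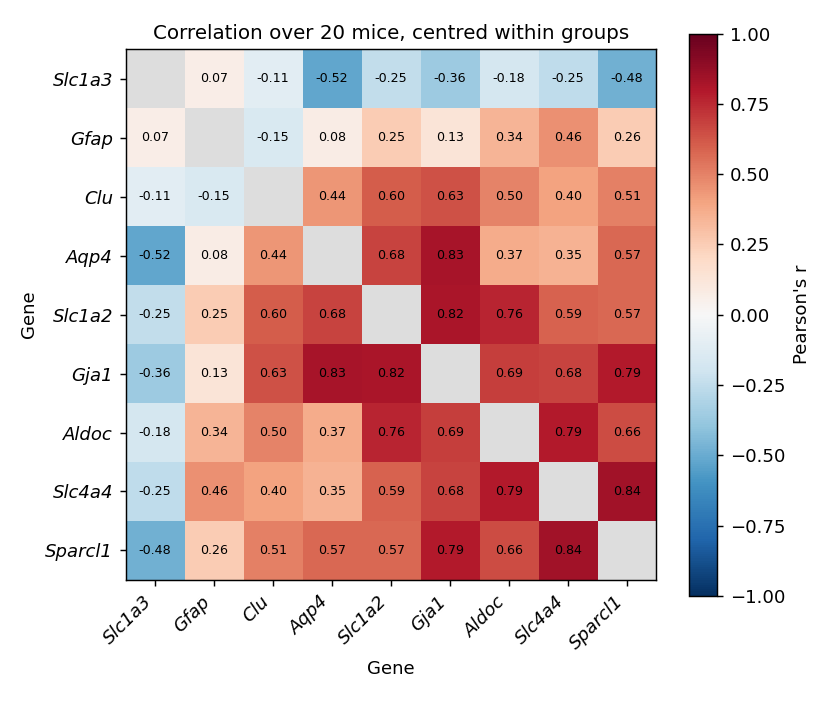
Pearson's r (colour and number) between the 9 genes (both axes) over 20 mice, from log2 values centred within groups. The row of Slc1a3 runs from -0.52 to 0.07, and the block of Sparcl1, Slc4a4, Aldoc, Gja1 and Slc1a2 lies between 0.57 and 0.84.

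Sparcl1 and Slc1a3 shared none of the 5 genes most like each. Among 14456 genes, the 5 with the highest r to Sparcl1 were Flt1 (0.92), Spock2 (0.90), Alpl (0.89), Cald1 (0.89) and Tceal5 (0.86), over 20 mice centred within groups. Flt1, a receptor for vascular endothelial growth factors, is an endothelial marker, and its genotype difference at 7 months did not pass (log2 fold change -0.52 ± 0.16, limma adjusted p = 0.0680). Slc4a4 ranked 9 and Gja1 19 in likeness to Sparcl1. The other members lay farther down, with Aldoc at 153, Slc1a2 at 387, Aqp4 at 398, Clu at 643, Gfap at 3005 and Slc1a3 at 13593. The 5 nearest to Slc1a3 were Clec4a3 (0.82), Mapre3 (0.80), Cd80 (0.78), Zkscan6 (0.78) and Nmrk1 (0.77). Clec4a3 and Cd80 encode surface proteins of myeloid cells. Cx3cr1 had r = 0.30 with Slc1a3 and r = -0.46 with Sparcl1. With Spearman's rho, 4 of the 5 genes nearest to Sparcl1 and 2 of the 5 nearest to Slc1a3 were shared.

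Other astrocyte genes were counted from a wider list of 40, of which 39 were in the table. At 7 months 13 of 39 tested fell and none rose (limma), against 2.70% of all genes, and the median log2 fold change was -1.40. Among those with the smallest adjusted p were S100b, a calcium-binding protein (log2 fold change -1.78 ± 0.29, limma adjusted p = 0.00323), Sox9, an astrocyte transcription factor (-1.61 ± 0.28, limma adjusted p = 0.00387), and Ndrg2 (-0.77 ± 0.14, limma adjusted p = 0.00514). At 10 months none of 36 tested fell and 4 rose, against 3.88% of all genes that rose. These were Ttyh1 (log2 fold change 0.90 ± 0.12, limma adjusted p = 0.00107), Nfia (0.52 ± 0.084, limma adjusted p = 0.00333), Slc39a12 (0.55 ± 0.15, limma adjusted p = 0.0408) and Aldh1l1, a folate enzyme used as an astrocyte marker (1.09 ± 0.32, limma adjusted p = 0.0493). At 7 months these 4 did not pass, with log2 fold changes of -0.51, 0.10, 0.029 and 0.21 in the same order (limma adjusted p = 0.172, 0.441, 0.941 and 0.695). Nfia had group means of 4345 to 6693 normalized counts, and which cells these 4 genes came from was not tested. Cst3, Apoe and Glul are on the list too, and microglia express them strongly, so the summed level of the list follows Cst3 (589360 to 1225299 normalized counts over the 20 mice) and not the astrocyte genes.

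Of a list of 34 genes of reactive astrocytes, 28 were tested at each age. At 7 months, where 2.70% of all genes fell and 2.23% rose, 1 of 28 fell, S100a10 (log2 fold change -0.46 ± 0.13, limma adjusted p = 0.0488), and 2 rose, Cxcl10, a chemokine (1.26 ± 0.25, limma adjusted p = 0.00967), and Cp, the copper protein ceruloplasmin (0.76 ± 0.15, limma adjusted p = 0.0149). At 10 months 9 of 28 fell, against 3.79% of all genes, and none rose. Ptgs2, the inducible cyclooxygenase (-1.20 ± 0.17, limma adjusted p = 0.00332), Cd14, a co-receptor for lipopolysaccharide on myeloid cells (-0.60 ± 0.10, limma adjusted p = 0.00549), Clcf1, a cytokine (-2.39 ± 0.44, limma adjusted p = 0.00724), and Vim, the filament vimentin (-0.72 ± 0.14, limma adjusted p = 0.0119), had the smallest adjusted p (log2 fold changes). Several of these genes, Cd14 among them, are expressed by myeloid cells.

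The pathways of the members were counted against the same shares of all genes (2.70% lower and 2.23% higher at 7 months, 3.79% lower and 3.88% higher at 10 months). Of 18 glutamate handling genes tested at 7 months, none rose. At 10 months 1 of 18 fell (Slc1a4, a neutral amino acid transporter of the same family, log2 fold change -1.06 ± 0.27, limma adjusted p = 0.0415) and 1 rose (Got1, an aspartate aminotransferase, 0.44 ± 0.090, limma adjusted p = 0.0107). Of 22 water, ion and gap junction genes tested at 7 months, Gjb6, another astrocyte connexin (-2.13 ± 0.44, limma adjusted p = 0.0113), was among those that fell, and Dag1, dystroglycan (0.34 ± 0.076, limma adjusted p = 0.0191), rose. At 10 months 1 of 23 fell (Panx1, a channel protein, -0.58 ± 0.16, limma adjusted p = 0.0427). The median log2 fold changes of these lists were -0.031 and 0.064 at 7 months and -0.028 and 0.024 at 10 months.

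Markers of other brain cells moved with the astrocyte genes at 7 months. Of 18 neuron markers tested, 9 fell and none rose, against 2.70% of all genes that fell, with a median log2 fold change of -1.48. Nefm, a neurofilament (-2.43 ± 0.30, limma adjusted p = 0.000945), and Nrgn, neurogranin (-1.98 ± 0.29, limma adjusted p = 0.00183), were among them. The 20 neuron markers together made up 72.5 to 135 RPM in wild-type and 21.4 to 48.5 in transgenic mice at 7 months, and 30.9 to 94.8 and 31.8 to 62.6 at 10 months, where 1 of 16 fell (Camk2a, -0.51 ± 0.13, limma adjusted p = 0.0285), against 3.79% of all genes. Of the 13 oligodendrocyte markers tested at 7 months (2.70% of all genes fell) 3 fell, among them Mbp (-0.49 ± 0.11) and Mobp (-1.64 ± 0.38, limma adjusted p = 0.0163 and 0.0215), and of 12 at 10 months none passed. Their sum was led by Trf and ranged from 1776 to 2686 RPM over all mice. No defining marker of neurons or oligodendrocytes was at 0 in every mouse. The part of the neuron and oligodendrocyte RNA in the differences of the 9 genes was not tested.

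Vascular and other markers were counted against the same shares. At 7 months 2 of 12 endothelial markers fell (Cldn5, a tight junction protein, -1.29 ± 0.27, and Pecam1, -0.55 ± 0.13, limma adjusted p = 0.0125 and 0.0238), as did 1 of 9 mural cell markers (Vtn, -1.40 ± 0.35, limma adjusted p = 0.0301) and 1 of 6 oligodendrocyte precursor markers (Cspg5, -1.95 ± 0.42, limma adjusted p = 0.0136), and no ependymal, border macrophage or neutrophil marker passed. The endothelial sum was 146 to 202 RPM in wild-type and 115 to 149 in transgenic mice at 7 months, and 204 to 337 and 152 to 328 at 10 months. Its median was higher at 10 than at 7 months in wild-type (281 against 165 RPM) and in transgenic mice (219 against 142). The median sum of the 8 astrocyte genes was lower at 10 months in wild-type mice (54.6 against 103 RPM). In transgenic mice it was higher (65.8 against 33.9 RPM). These differences between the ages were not tested. At 10 months 1 of 12 endothelial (Slc2a1), 1 of 3 ependymal (Hdc), 5 of 10 border macrophage and 2 of 9 neutrophil markers fell. Hdc averaged 586 normalized counts in transgenic and 2385 in wild-type mice at 10 months (log2 fold change -2.03, limma adjusted p = 0.0158). The ependymal markers Foxj1 and Rsph1, at group means of 10.9 to 20.1, did not pass (log2 fold changes 0.59 and 0.054). The fall of Hdc thus does not stand for the ependymal list, and which cells its RNA came from was not tested. Of 19 microglia markers, 1 rose at 7 months (Gpr34, a microglial receptor, 0.53 ± 0.087, limma adjusted p = 0.00334) and 4 at 10 months (Sall1, Siglech, Itgam and Cx3cr1), and none fell. Their part in the astrocyte values was not tested.

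**Figure D5:**
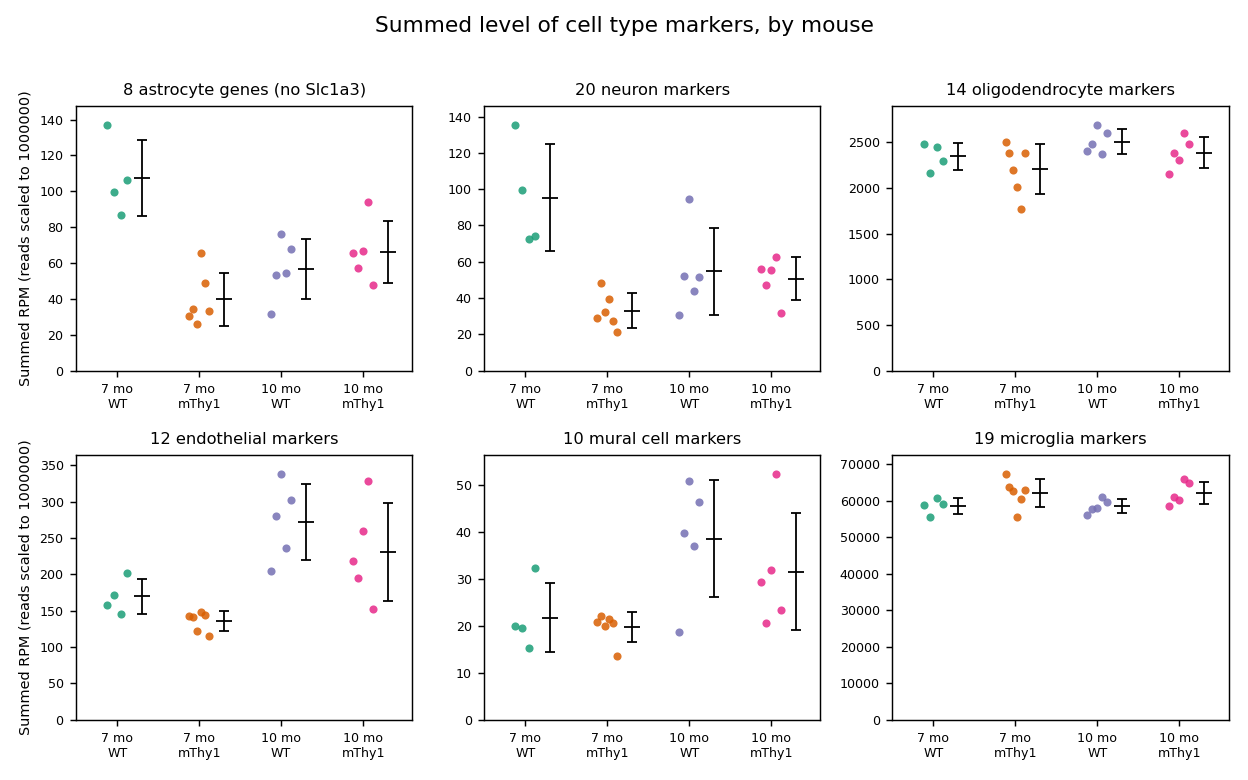
Summed RPM (y axis, linear from 0) of marker lists in each mouse by group (x axis; WT, wild-type; mThy1, mThy1-α-synuclein), with the mean ± SD beside the points. The 8 astrocyte genes and the neuron markers had their highest medians in the wild-type mice at 7 months (ranges 87.0 to 137 and 72.5 to 135), while the microglia markers stayed between 55478 and 67157.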

How the data were processed

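RNA of microglia from 20 mice was sequenced as polyA-selected, paired-end libraries in a single run. Per the labels and the paper's methods, the authors trimmed reads with Trim Galore 0.6.7, mapped them to mm10 with HISAT2 2.2.1, assigned reads to genes with featureCounts and scaled the counts by DESeq2 1.44.0 size factors. The deposited values, a depth-normalized signal of 24062 genes, were whole multiples of 1 step per mouse, each age normalized separately, so that whole reads could be recovered (100% of values, tolerance 0.01). For transgenic mouse 5 at 10 months the step was too close to 1 to be tested.

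Genes reaching 10 in 4 or more mice (7 months and interaction) or in 5 or more (10 months) were tested with limma 3.58.1 (trend, robust; R 4.3.3) on log2(value + 1), with Benjamini-Hochberg adjustment over all genes tested and a cutoff of 0.05. Fold changes are on the log2(value + 1) scale, which understates low genes. edgeR 4.0.16 and DESeq2 1.42.0 were run on the recovered reads as alternatives, beside other pseudocounts, no filter, TMM scaling, a joint fit, a replicate block, and each mouse left out. Correlations used Python 3.11.15 with scipy 1.17.1. The fits were tested on simulated data.

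The genes described, the gene lists and the tests were chosen with earlier results of these data known. Named genes were the 9, up to 4 called genes with the smallest adjusted p of each list and age, the 5 most like Sparcl1 and Slc1a3, and set microglial and most abundant markers. Thy1 was named as the promoter of the transgene, and other genes of counts of 5 or fewer were named after their values were seen. Promoter sequences came from RefSeq, where 6 of the 9 genes matched. Replicate numbers did not pair the mice: correlations of same-numbered mice were -0.13 to 0.032 at 7 and -0.050 to 0.0995 at 10 months. The lowest chi-square per gene between mice of a group was 24.7 over all genes, which abundant genes dominate. For Slc1a3 counting noise made up 0.881% to 2.15% of the variance between mice of a group, and for Aqp4 in wild-type mice 96.7% at 7 and 32.2% at 10 months. A few genes that the naming rule selects are not reported here.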

Additional observations from a re-analysis of the deposited data

Results flagged for a closer look

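For 5 genes the genotype difference at 10 months differed from that at 7 months by the interaction test of limma. The difference between the ages was 1.97 for Sparcl1, 1.74 for Slc1a2, 1.53 for Aldoc, 2.35 for Gja1 and 2.04 for Slc4a4 on the log2 scale.

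In 2 of the 36 gene and group combinations examined, 1 mouse lay far from the rest of its group by Dixon's criterion, and chance flags about 1 in 20 such groups. Aqp4 measured 49.7 normalized counts in wild-type mouse 4 at 10 months, with the next mouse at 28.3. Slc4a4 measured 150 normalized counts in transgenic mouse 4 at 7 months, with the next mouse at 89.8.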

How the results depend on the processing

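The 4 genes that fell at 7 months, Sparcl1, Slc4a4, Aldoc and Gja1, passed under all 8 alternative settings. With the mouse numbers as a replicate block, genes called at 7 months numbered 414 instead of 684, and 482 instead of 920 in the interaction. In the block fit at 7 months Slc1a3 missed the cutoff (limma adjusted p = 0.0504), Clu passed (limma adjusted p = 0.0131), and Gfap turned to 0.15. In the interaction with the block Slc1a2 and Slc4a4 missed the cutoff (limma adjusted p = 0.0569 and 0.104) and Clu passed (0.0146). Pairing of the mice by number was not found, as the correlations given with the methods show. DESeq2 called 1158 genes at 7 and 1694 at 10 months (limma 684 and 1045), and at 10 months 1 of the 9 genes, Slc1a2. A joint fit of all 20 mice called Slc1a2 at 7 months (limma adjusted p = 0.0296). At 10 months Slc4a4 turned to -0.16 in edgeR and -0.16 in DESeq2, and its difference from Slc1a3 to -0.0012 with a pseudocount of 5. Leaving out 1 mouse at a time gave 282 to 858 genes at 7 months (282 without wild-type mouse 1), 497 to 1235 at 10 months and 618 to 1096 in the interaction. Of the 9 genes it gave 4 to 6 at 7 months, 0 to 1 at 10 months, 3 to 6 in the interaction (3 without the 7-month wild-type mouse 1), and of the 8 set against Slc1a3 4 to 7 at 7 months and 0 to 1 at 10 months. Log2 fold changes at 10 months that turned in these fits were Slc1a3 (-0.029 to 0.050), Slc4a4 (-0.34 to 0.28) and Sparcl1 (-0.14 to 0.21), and the differences from Slc1a3 of Slc4a4 (-0.37 to 0.31) and Sparcl1 (-0.17 to 0.24). None of the 21 turned values passed the test. The cause of these changes was not tested. Low counts limit Aqp4, Gfap, Gja1 and Slc4a4, which lay under 100 normalized counts in many mice.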
